A study of Oryza sativa with 4 samples.

Results

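The transcripts described here are the rice transcripts whose annotation text names a transposon or a retrotransposon and that were found on polysomes. Members were chosen by measured level: an assembled transcript entered if it matched an annotated transcript in full, if the text of that transcript held the word transposon, and if it reached at least 1 FPKM in at least 1 of the 4 libraries. FPKM is a count of fragments scaled to the length of the transcript and to the mapped fragments of the library. The rule took 406 of 15465 transposon-annotated transcripts, from a table of 57629 annotated and 89715 assembled transcripts. The members came from 364 gene loci, of which 30 gave several transcripts.

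The libraries were 4, with 1 for each combination of genotype (IR29 or Pok) and treatment (control or salt). IR29 is a salt-sensitive rice genotype and Pok (Pokkali) a salt-tolerant one. Seedlings 24 days old were kept in Yoshida nutrient medium, and the salt groups were given 150 mM NaCl in it for 24 h. Polysomal RNA was taken from whole seedlings, from gradient fractions carrying more than 2 ribosomes, and each library was taken as a pool of 3 biological replicates. No spread between replicates can therefore be computed, and the differences below are between single libraries and are given without a test, apart from a fit over the 4 libraries with genotypes or treatments as pairs. In RNA of whole seedlings, fewer cells of a type and less RNA per cell cannot be told apart.

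Retrotransposons copy themselves through an RNA that is reverse transcribed and inserted elsewhere. The long terminal repeat classes Ty1-copia and Ty3-gypsy and the LINE class encode the proteins for this, whereas SINE elements encode none and borrow them. DNA transposons (CACTA or En/Spm, Mutator, Mariner, Ac/Ds and Pong) are moved by a transposase, and plants hold most elements silent through DNA methylation, histone marks and small RNAs. Annotation text of this kind rests on similarity to element proteins, so a gene that carries it may also be a host gene derived from an element. A transcript on polysomes is one associated with ribosomes, and the word translatome is used for the set of them.

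Few transposon-annotated transcripts reached the polysomes at this level. The 406 members were 2.63% of the transposon-annotated transcripts, whereas 20397 of 42164 other annotated transcripts (48.4%) reached 1 FPKM. This share was set by the rule and is a description. Of the members, 204 (50.2%) were at 1 FPKM or more in all 4 libraries and 80 (19.7%) in a single library, against 68.5% and 11.4% of the 20397 others. That library was a salt one for 30 (IR29) and 25 (Pok) of the 80 and a control one for 8 (IR29) and 17 (Pok). A salt library held 68.8% of the single-library members, beside 60.6% of the single-library others. Each of these passed the 1 FPKM limit through that library alone, so this split too is a description. The highest value lay below 2 FPKM for 105 members and at 5 FPKM or more for 163. Just inside the limit stood Os11g34150.2 and Os03g61870.1, both with a highest value of 1.01 FPKM, and just outside it Os04g12390.1 at 0.999 and Os04g53660.3 at 0.99 FPKM.

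The word expressed, which the annotation adds where transcript evidence existed, separated the rows. It stood in the text of 950 of the 15465 transposon-annotated transcripts, and 299 of these (31.5%) were members. Of the 14515 without it, 107 (0.737%) were members. Chromosome 1 held the most members, 61 of 1331 transposon-annotated transcripts (4.58%), and chromosome 9 had the lowest share among the 12 chromosomes, 19 of 1054 (1.80%). An assembled locus, the unit for which the table gives a position, held 1 annotated transcript for 217 members, and 123 members shared theirs with genes of other annotation.

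By class, 200 members were retrotransposons (1.70% of 11733 annotated) and 206 DNA transposons (5.52% of 3732). The unclassified groups were the most numerous, with 139 of 6612 retrotransposons and 120 of 1466 transposons. CACTA gave 58 of 2032, Ty3-gypsy 26 of 3632 and Ty1-copia 19 of 756. The share was highest for SINE, with 10 of 18 transcripts (55.6%, from 4 loci), followed by Mutator with 12 of 62 (19.4%) and Pong with 12 of 106 (11.3%). The centromere-specific retrotransposons gave 5 of 608, Mariner 3 of 40, LINE 1 of 107 and Ac/Ds 1 of 26. The median of the members' mean levels was 8.24 FPKM for SINE, 4.53 for Mutator, 2.99 for unclassified retrotransposons and 1.19 for Ty3-gypsy. Pong members were the lowest of the classes with 10 or more members, at 0.696 FPKM, and none of the 12 reached 5 FPKM.

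**Figure D1:**
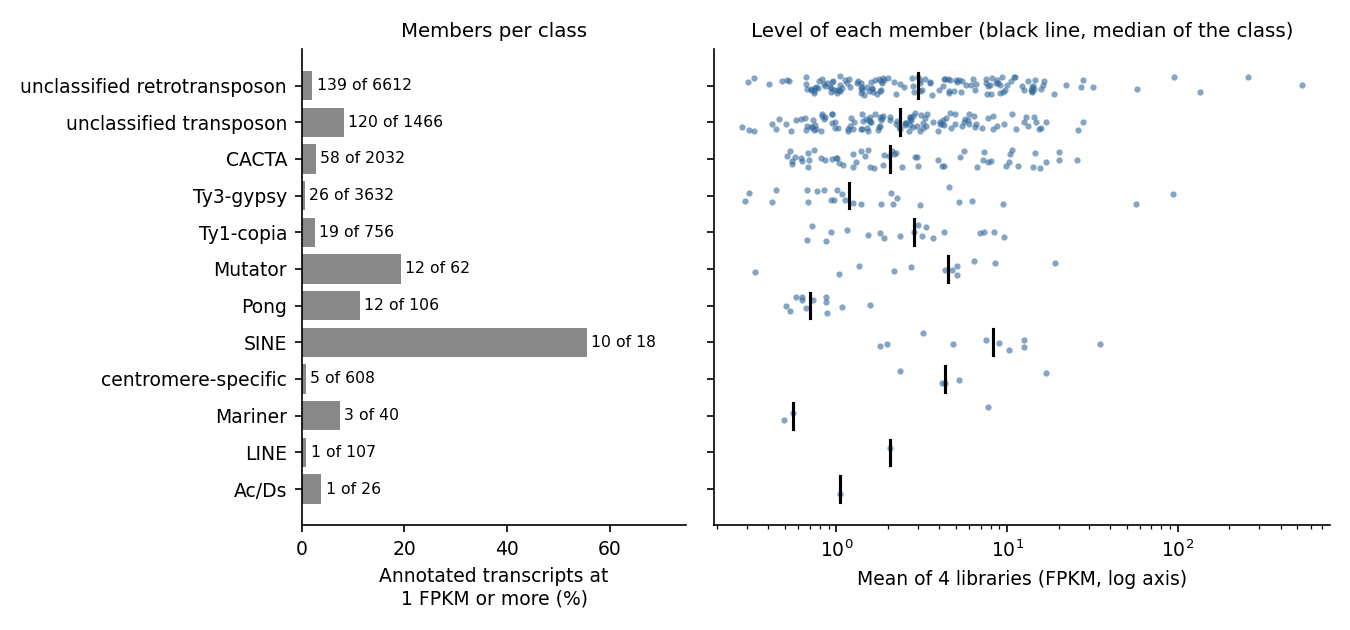
Left, share of the annotated transcripts of each class that reached 1 FPKM in at least 1 library (x axis, percent; bars, with members of annotated transcripts beside them). Right, mean level over the 4 libraries (x axis, FPKM, log axis) of each member (points), with the median of the class as a black line. SINE has the highest share (55.6%) and the highest median (8.24 FPKM), and a few unclassified retrotransposons reach far above their class median.

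A handful of members carried much of the signal. In IR29 the members' FPKM summed to 2457 without and 3271 with salt, and in Pok to 2839 and 3491, which was 1.04%, 1.26%, 1.05% and 1.22% of the sum over annotated transcripts. These shares do not hold for the sum over all assembled transcripts. Of that wider sum, the 5 highest transcripts held 41.4%, 65.1%, 64.6% and 58.5% in the same order. The 10 highest members held between 43.2% and 45.5% of the members' sum in each library, and the highest alone between 16.1% and 21.2%. The median member was at 1.83, 2.63, 2.03 and 2.43 FPKM in the same order, and 34, 25, 30 and 25 members were listed at 0. Levels below follow this order too: first IR29 without and with salt, then Pok without and with salt. A listed 0 can be a failed estimate in such a table, so no ratio is given against it.

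The highest member was Os01g57960.1, an unclassified retrotransposon protein on chromosome 1 (33505149 to 33507809, build MSU v6.1), alone in its assembled locus. It stood at 519.7, 537, 503 and 563 FPKM, the same order of level in every library. Os05g13940.1, also an unclassified retrotransposon, followed with 233, 161, 363 and 269 FPKM. It was lower after salt than in the control in both genotypes, by less than 2-fold, and higher in Pok than in IR29 in both conditions. Its assembled locus on chromosome 5 held 10 annotated transcripts, 5 of them transposon-annotated. Of all members, 17 averaged 20 FPKM or more, and the 10 highest are plotted by library.

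**Figure D2:**
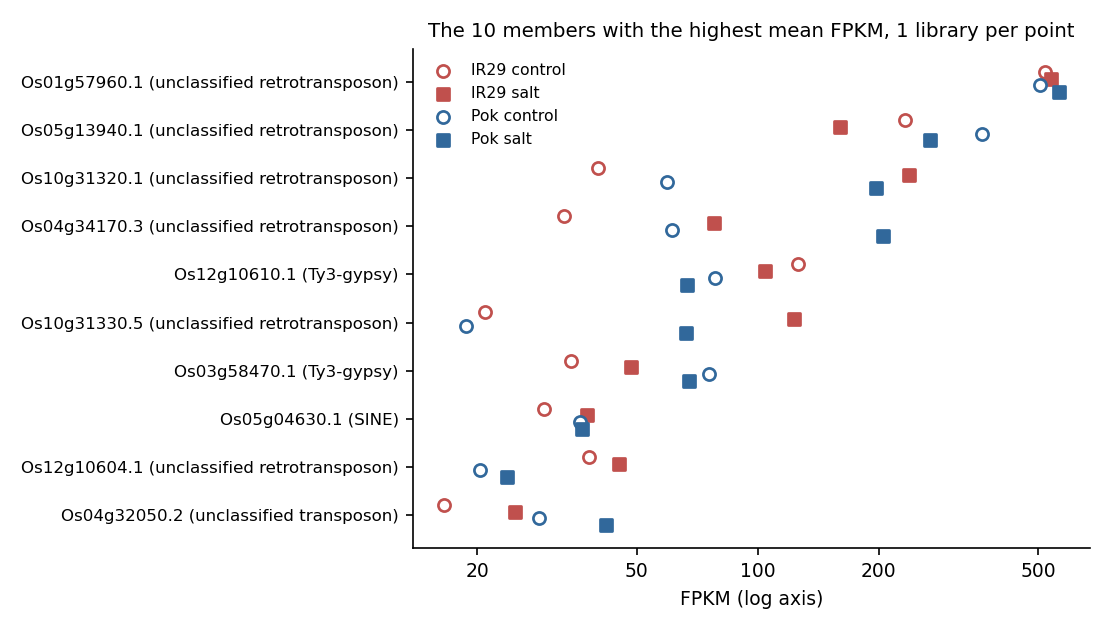
Level of the 10 members with the highest mean (x axis, FPKM, log axis), with 1 point for each library: circles, control; filled squares, salt; red, IR29; blue, Pok. Os01g57960.1 has nearly the same level in all 4 libraries, while Os10g31320.1, Os04g34170.3 and Os10g31330.5 have both salt points to the right of both control points.

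A pair of Ty3-gypsy members were among the highest. Os12g10610.1 (chromosome 12, 5656694 to 5658431) stood at 126, 104, 78.1 and 66.6 FPKM, higher in IR29 than in Pok in both conditions. Its neighbour Os12g10604.1 (5650040 to 5656156), annotated as an unclassified retrotransposon, had 37.9, 45.3, 20.3 and 23.8 FPKM and was likewise lower in Pok, with Pok values 0.536 and 0.525 times those of IR29 in control and salt. Os03g58470.1 went the other way in control, with 34.2, 48.4, 75.8 and 67.3 FPKM. Together Os12g10610.1 and Os03g58470.1 made up most of the summed level of their class, whose median member was at 1.19 FPKM.

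Highest of the SINE class, Os05g04630.1 stood at 29.4, 37.5, 36.1 and 36.6 FPKM. Among CACTA members, Os10g02630.1 had 14, 22.3, 21.3 and 22.9 FPKM and stayed within 2-fold. Os04g37770.1 (21.7, 14.7, 33.8 and 32.4 FPKM) and Os01g09220.1 (11.3, 17.5, 32.4 and 19.7 FPKM) were more than 2-fold apart between their lowest and highest libraries. The Mutator member Os12g12360.1 was at 14, 19.4, 20 and 23.3 FPKM, and the Mariner member Os02g34730.1 at 6.01, 9.15, 6.16 and 9.56 FPKM. In the latter, both salt values lay above both control values, by 1.52-fold in IR29 and 1.55-fold in Pok. The centromere-specific retrotransposon Os03g42530.1, from an element family that inserts at rice centromeres, was at 21, 22.6, 10.8 and 13 FPKM, lower in Pok in both conditions. Of the Ty1-copia members the highest was Os08g14000.1, at 9.73, 11.4, 11.5 and 5.73 FPKM, in an assembled locus that held 27 annotated transcripts.

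The response to salt was read by size limits: a transcript was considered if it had at least 5 FPKM in at least 1 of the 2 libraries compared, and was called higher or lower if the ratio of FPKM was at least 2. In IR29, 134 members were considered, of which 34 were higher after salt (25.4%) and 11 lower (8.21%). Over all annotated transcripts under the same limits the shares were 19.1% higher and 5.96% lower. In Pok, 144 members were considered, with 29 higher (20.1%) and 8 lower (5.56%), against 15.7% and 5.61% over all annotated transcripts. The members' shares thus lay a few points above those of all annotated transcripts or at them. The median log2 ratio of (FPKM + 1) over the 406 members was 0.25 in IR29 and 0.06 in Pok, and over the other annotated transcripts at 1 FPKM it was 0.20 and 0.08.

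Part of the excess of higher over lower members in IR29 was shared by the whole table. A set of 7424 annotated transcripts never fell below 5 FPKM, and its median log2 ratio (salt to control) was 0.26 in IR29 and 0.06 in Pok. With ratios centred on these medians, 23 members were higher and 14 lower in IR29, and 28 and 11 in Pok, while 13.3% and 9.93% of all annotated transcripts were higher and lower in IR29 and 14.5% and 6.48% in Pok. With libraries scaled to their upper quartiles, the numbers were 21 and 15 in IR29 and 24 and 14 in Pok. Relative to the shift of the whole table, the members' median log2 ratio was 0.08 in IR29 and 0.03 in Pok.

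The calls were spread over several classes. Unclassified retrotransposons gave 15 higher and 7 lower of 56 considered in IR29, and 17 higher and 2 lower of 61 in Pok. Unclassified transposons gave 8 higher and 1 lower of 32 in IR29, and 4 higher and 1 lower of 34 in Pok. CACTA members gave 6 higher and none lower of 19 in IR29, and 4 higher and 2 lower of 22 in Pok. Of the SINE transcripts, 3 were higher and 1 lower of 7 in IR29, and 2 and 1 of 7 in Pok. Of the 26 Ty3-gypsy members, 5 were considered in each genotype, and none of these was higher after salt. The rest were too low to be considered. The median of the 26 was 0.726 and 1.55 FPKM in IR29 and 0.819 and 1.66 FPKM in Pok, without and with salt. Members could enter through a salt library alone, so these medians are a description. Pong members could not be read, since none was considered, and several sat near the 1 FPKM limit: Os04g47750.1 was at 0, 2.11, 0.289 and 1.95 FPKM.

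Of the members considered in both genotypes, 115 in all, 14 were higher after salt in both (12.2%), against 8.98% of all annotated transcripts. The 14 are transcripts and not separate places in the genome. Of them, 4 lay in the chromosome 10 stretch described below. Os04g51150.1 and Os04g51160.1 were neighbours, and Os05g04630.2 and Os05g04630.5 were forms of 1 gene. The 14 were 41.2% of the members higher in IR29 and 48.3% of those higher in Pok, and over all annotated transcripts these overlaps were 42.7% and 49.9%. Centring left 12 of the 14, without Os01g54700.1 and Os04g34170.3, and upper-quartile scaling left 11, without these and Os05g04630.5. Over the 121 members with a mean of 5 FPKM or more, the log2 ratios in IR29 and Pok had a Pearson correlation of 0.47. Over all 10212 such annotated transcripts it was 0.51, and the points of each set share the same 4 libraries.

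**Figure D3:**
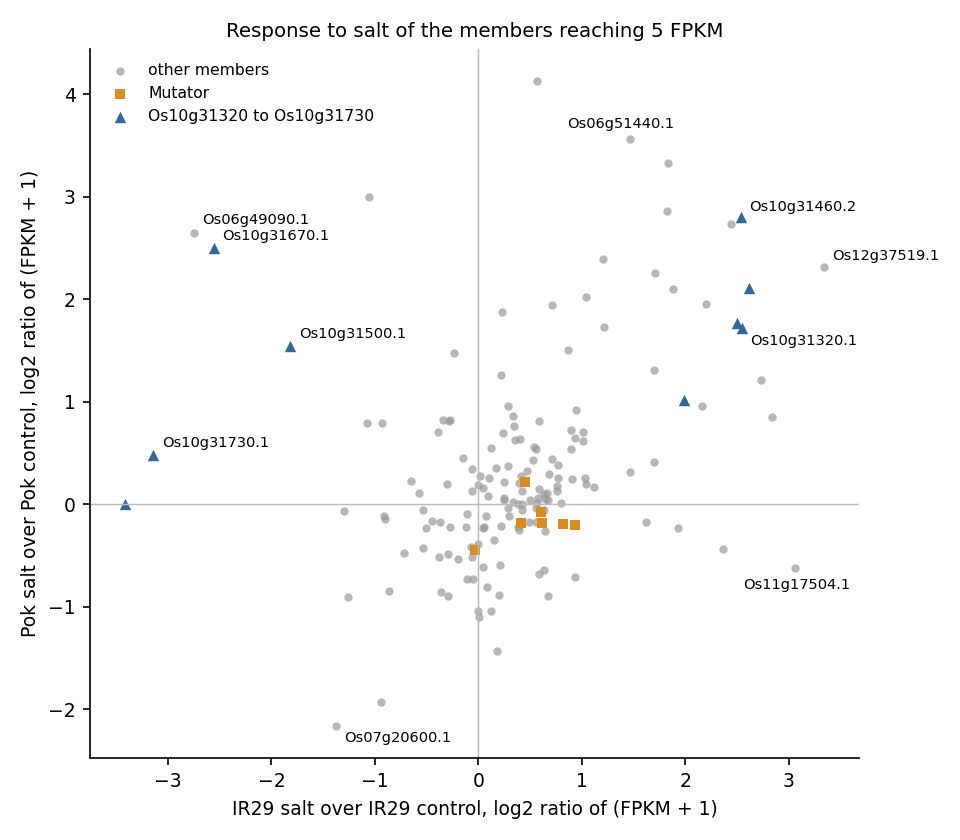
Salt over control in IR29 (x axis) against Pok (y axis), as log2 ratio of (FPKM + 1), for the 163 members that reached 5 FPKM in at least 1 library (points). Triangles mark members of the chromosome 10 stretch described below, squares Mutator members. Triangles lie both at the upper right, as Os10g31320.1, and at the upper left, as Os10g31670.1 with -2.55 in IR29 and 2.50 in Pok.

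The highest of the members that were higher in both genotypes was Os10g31320.1, an unclassified retrotransposon on chromosome 10 (16354776 to 16355705). It had 39.9, 239, 59.3 and 197 FPKM, a ratio of 5.98 in IR29 and 3.32 in Pok. Beside it, Os10g31330.5 (16357599 to 16358877) had 20.9, 123, 18.8 and 66.3 FPKM, a ratio of 5.89 and 3.53. In both, each salt library lay above each control library. Os04g34170.3 had 33, 77.9, 61.3 and 205 FPKM, so that it was also higher in Pok than in IR29 after salt, by 2.63-fold.

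Another pair of neighbouring loci lay on chromosome 4. Os04g51150.1, an unclassified transposon protein (30092322 to 30105395), had 10.6, 41.8, 9.02 and 42 FPKM. Os04g51160.1, of the same annotation, had 3.38, 13.4, 2.14 and 14 FPKM. The ratios of salt to control were close to each other in IR29, 3.94 and 3.95, and were 4.66 and 6.55 in Pok.

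Lower at the start but with larger ratios were Os09g25690.1, Os12g15530.1 and Os12g37519.1, all unclassified retrotransposons. The first had 2.82, 19.7, 3.79 and 30.9 FPKM, a ratio of 7.0 in IR29 and 8.14 in Pok. Os12g15530.1 had 1.66, 11.2, 3.01 and 14.6 FPKM. Os12g37519.1, in an assembled locus with 4 annotated transcripts, had 0.507, 14.3, 0.972 and 8.84 FPKM. Its ratio in IR29, 28.2, was the largest of the members called higher in both genotypes, and it was 9.09 in Pok. From CACTA, Os06g41740.1 had 4.52, 16.9, 5.21 and 14.4 FPKM. In each of these the control values of the genotypes were close to each other when set against the difference to salt.

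A few members were at the floor in both controls. With at least 1 FPKM in both salt libraries and under 0.1 FPKM in both controls, limits chosen after the values were seen, there were 6 members (1.48%), against 0.274% of all 20803 annotated transcripts at 1 FPKM. No member showed the opposite pattern, against 0.216%. The 6 entered the set through their salt libraries alone, and the other transcripts passed the same 1 FPKM limit, so these shares are a description. Low transcripts pass such limits more easily: among transcripts whose highest value was below 5 FPKM, the salt pattern was found in 5 of 243 members (2.06%) and 37 of 7982 others (0.464%). The 6 included the Mutator transcript Os06g42710.1 (0.0527, 2.92, 0.06 and 1.13 FPKM), the Ty3-gypsy transcript Os06g45184.1 (0, 4.96, 0 and 3.42 FPKM) and Os12g33750.1 (0.098, 6.31, 0.0975 and 1.54 FPKM). Just outside the limits, another Mutator transcript, Os05g05520.1, had 0.0818, 3.77, 0.103 and 1.48 FPKM.

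Some members had large ratios in both genotypes but high levels in Pok alone. Os06g51440.1, a CACTA transcript (chromosome 6, 31156331 to 31157299), had 0.0656, 1.94, 0.286 and 14.2 FPKM. Os08g34390.1, an unclassified retrotransposon, had 0.1, 2.92, 0.187 and 10.9 FPKM. The ratio of salt to control was 49.7 in Pok and 29.6 in IR29 for the first, and 58.2 and 29.1 for the second, but in IR29 both stayed under the 5 FPKM needed for a call. In the opposite case, the Ty1-copia transcript Os11g17504.1 had 0.504, 11.5, 1.07 and 0.339 FPKM, with a high value in IR29 salt alone. Its assembled locus held 6 annotated transcripts, and both members of its gene locus together had 3.36, 15.7, 5.58 and 3.52 FPKM.

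Lower after salt in both genotypes were 2 members, against 1.36% of all annotated transcripts considered in both. Os07g20600.1, a centromere-specific retrotransposon (chromosome 7, 11907725 to 11908588), had 5.43, 1.48, 8.54 and 1.13 FPKM. Os08g16830.1, a SINE transcript, had 9.83, 3.51, 11.1 and 5.46 FPKM. In both, the salt values lay below both control values.

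The response that the genotypes share was also tested, with the genotypes as pairs. limma was fitted to log2 (FPKM + 1) of the 10212 annotated transcripts with a mean of 5 FPKM or more, with genotype and treatment as terms, a test added after the values were seen. The spread in it is how far the response differed between the genotypes, on 1 residual degree of freedom, and not a spread between replicates. It was drawn towards a trend over all transcripts tested, with 5.57 prior degrees of freedom. An SE below therefore rests mostly on this shared trend and less on the transcript's own difference between genotypes. Of the 121 members tested, 13 were higher after salt (10.7%) and none lower at a Benjamini-Hochberg adjusted p of 0.05, against 7.08% and 0.901% of all transcripts tested. At an unadjusted limma p of 0.05 the numbers were 26 (21.5%) and 2 (1.65%), against 19% and 5.72% of all transcripts tested. The 13 were those of the 14 above other than Os01g54700.1, so neighbours and forms of 1 gene are counted separately here too. The smallest adjusted p of a member in this limma fit was 0.00508, for Os09g25690.1, with a log2 difference of 2.59 ± 0.24 (SE), and Os10g31320.1 had 2.13 ± 0.31 (SE). These calls depended on the scaling: centred or scaled to the upper quartile, the limma fit called none of the members, with smallest adjusted p of 0.0559 and 0.0721, and with 19 higher and 2 lower (centred) and 18 and 6 (upper quartile) at an unadjusted p of 0.05. Over all transcripts tested the number called went from 815 to 1 with either scaling. At the unadjusted limit, 2378 (centred) and 2452 (upper quartile) of the 10212 passed in the limma fit, both directions together.

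Opposite responses in the genotypes were few. Lower in IR29 and higher in Pok after salt were 3 members, Os10g31500.1, Os10g31670.1 and Os06g49090.1, against 0.634% of all annotated transcripts considered in both genotypes. Higher in IR29 and lower in Pok was no member, against 0.337%. Centring left all 3, but upper-quartile scaling left Os10g31500.1 alone past the limits. Os10g31500.1 (chromosome 10, 16429433 to 16430513) had 7.88, 1.52, 2.46 and 9.10 FPKM. Os10g31670.1 (16528261 to 16529094) had 6.48, 0.273, 0.149 and 5.50 FPKM. The study lists Os10g31670.1 among its oppositely regulated genes, as lower on polysomes in IR29 and higher in Pok. It also lists it as lower in total RNA in IR29. Os06g49090.1, an unclassified transposon protein, had 5.72, 0, 0 and 5.28 FPKM, and both zeros may be failed estimates, since another transcript of the same gene brought the gene's members to 7.33, 4.64, 1.95 and 7.84 FPKM.

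Os10g31500.1 and Os10g31670.1 lay in a stretch of chromosome 10, from Os10g31300 to Os10g31780 (16346890 to 16603558), that was looked at because of them. It held 47 annotated transcripts, of which 23 were transposon-annotated and 12 were members, and 13 were annotated as glycine-rich cell wall structural proteins, which form part of the plant cell wall. The members at the start of the stretch, from Os10g31320 to Os10g31460, were often higher after salt in both genotypes. Of these 8, 5 were called higher and 1 (Os10g31320.2) lower in IR29, and 4 were called higher in both IR29 and Pok. Besides Os10g31320.1 and Os10g31330.5, they included Os10g31460.5 with 3.83, 28.7, 1.62 and 10.3 FPKM and Os10g31460.2 with 3.14, 23, 1.5 and 16.5 FPKM. Os10g31420.1, among the 8 but too low to be considered, had 1.40, 0.443, 0.857 and 4.23 FPKM. It was thus lower in IR29 and higher in Pok after salt.

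From Os10g31500 on, the values ran otherwise. Os10g31730.1 (in an assembled locus at 16542559 to 16564087 with 5 annotated transcripts) had 21.9, 1.6, 12.1 and 17.2 FPKM, a 13.7-fold lower value after salt in IR29 and a 1.43-fold higher value in Pok. Of the 13 glycine-rich transcripts of the stretch, 9 were considered in both genotypes, and all 9 were lower in IR29 and higher in Pok after salt. Os10g31520.1, which lies among them, did not share this direction, with log2 ratios of 0.30 in IR29 and 0.05 in Pok. Of the glycine-rich genes, the study reports Os10g31530, Os10g31660 and Os10g31710 as repressed in IR29. It reports Os10g31620 as upregulated on polysomes in Pok. Among the members at the start of the stretch, no gene of other annotation was high enough to be considered.

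**Figure D4:**
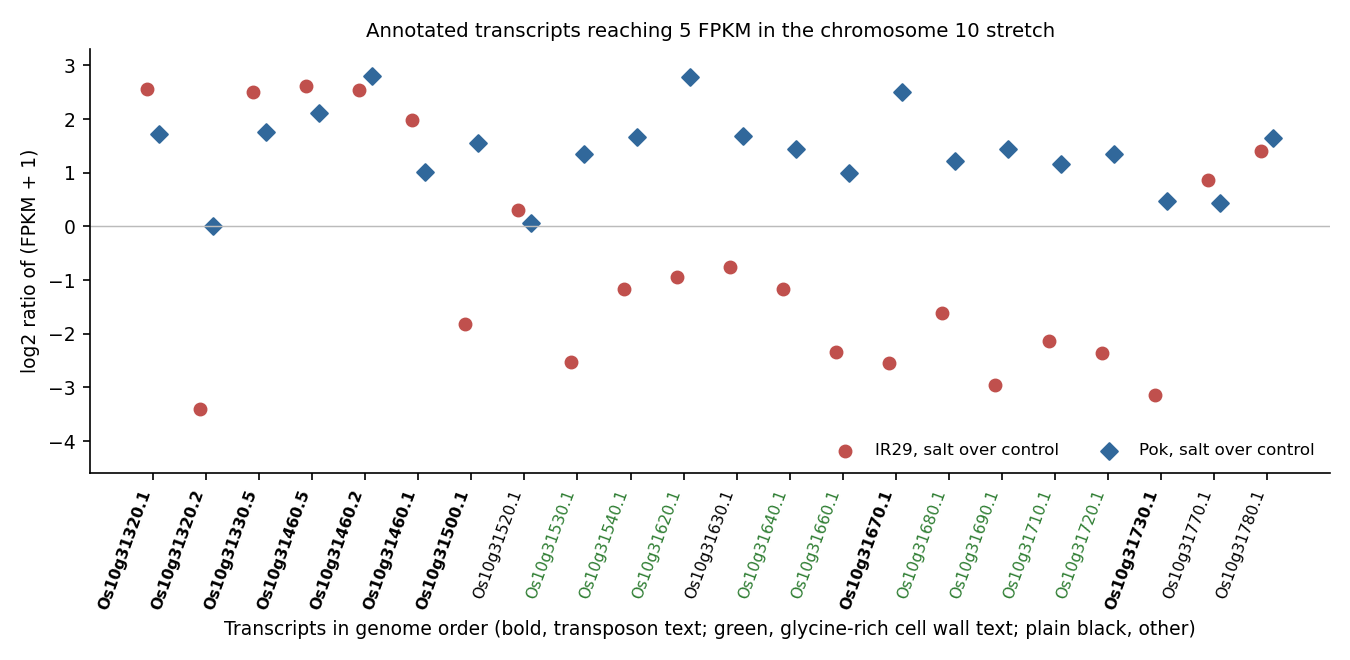
Salt over control as log2 ratio of (FPKM + 1) (y axis) in IR29 (red circles) and Pok (blue diamonds) for the annotated transcripts of the chromosome 10 stretch that reached 5 FPKM in a library, in genome order (x axis; transcripts of 1 assembled locus stand side by side). Bold names have transposon text and green names glycine-rich cell wall text. At the left both genotypes lie above 0, apart from Os10g31320.2, and from Os10g31500.1 to Os10g31730.1 IR29 lies below 0 and Pok above it, apart from Os10g31520.1.

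The 2 root markers that were read moved in the same way in these libraries. Lsi1 (Os02g51110.1) and Lsi2 (Os03g01700.1), the silicon transporters of rice roots, summed to 76.5, 18.1, 31.8 and 63.9 FPKM, with both at 1 FPKM or more in every library. Lsi1 alone was at 50.4, 8.93, 20.2 and 34.1 FPKM. The study reports Os02g51110 as an aquaporin gene that was lower after salt in IR29. A response of these genes to salt and a change in root content cannot be told apart here. The 21 transcripts of green tissue (Rubisco small chain and chlorophyll a/b binding proteins), of which 16 to 18 were above 1 FPKM in a library, summed to 4865, 1180, 6103 and 3717 FPKM, lower after salt in both genotypes. Os12g17600.2 alone had 2075, 189, 1759 and 739 FPKM. Os08g33820.1 had 0, 0, 769 and 693 FPKM, and its zeros may be failed estimates. Higher after salt were Os02g05830.1 in both genotypes, and Os04g59440.1 and Os09g12540.1 in Pok. The part of tissue makeup in the values of Os10g31500.1, Os10g31670.1 and Os10g31730.1 was not tested.

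Differences between the genotypes were read with the same limits. In control, 132 members were considered, with 22 higher in Pok (16.7%) and 18 lower (13.6%), against 11.0% and 6.62% of all annotated transcripts. After salt, 152 were considered, with 22 higher (14.5%) and 19 lower (12.5%), against 9.87% and 6.76%. In both conditions the share of members past the limits was above that of all annotated transcripts in either direction. The members were also lower in level, with a median of the mean FPKM of 2.27 against 4.90 for the other annotated transcripts, and the part of level in these shares was not tested. The balance of the 2 directions depended on the scaling. The whole table was shifted towards Pok by a median log2 ratio of 0.33 in control and 0.12 after salt. Centred on these, 13 members were higher and 24 lower in Pok in control, and 21 and 28 after salt. Over all annotated transcripts, 5.24% were then higher and 10.3% lower in control, and 7.51% and 8.27% after salt. With upper-quartile scaling, 13 members were higher and 23 lower in control, and 18 and 27 after salt. The members' median log2 ratio as deposited was 0.18 in control and 0.01 after salt, beside 0.19 and 0.07 over the other annotated transcripts.

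Some of the members that differed in control differed in the same direction after salt. Of the 121 members considered in both conditions, 7 were higher in Pok in both, against 2.83% of all annotated transcripts, and 8 were lower in Pok in both, against 2.05%. The 7 were 31.8% of the members higher in each condition, and over all annotated transcripts such overlaps were 23.6% and 23.9%. For the 8, the overlaps were 44.4% and 42.1%, and over all annotated transcripts 28.3% and 25.2%. With either scaling 3 of the 7 and all of the 8 stayed past the limits. Pearson's correlation between the log2 ratios in control and after salt was 0.63 over the members with a mean of 5 FPKM or more and 0.43 over all such annotated transcripts, although the Spearman values were near each other, 0.35 and 0.31.

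**Figure D5:**
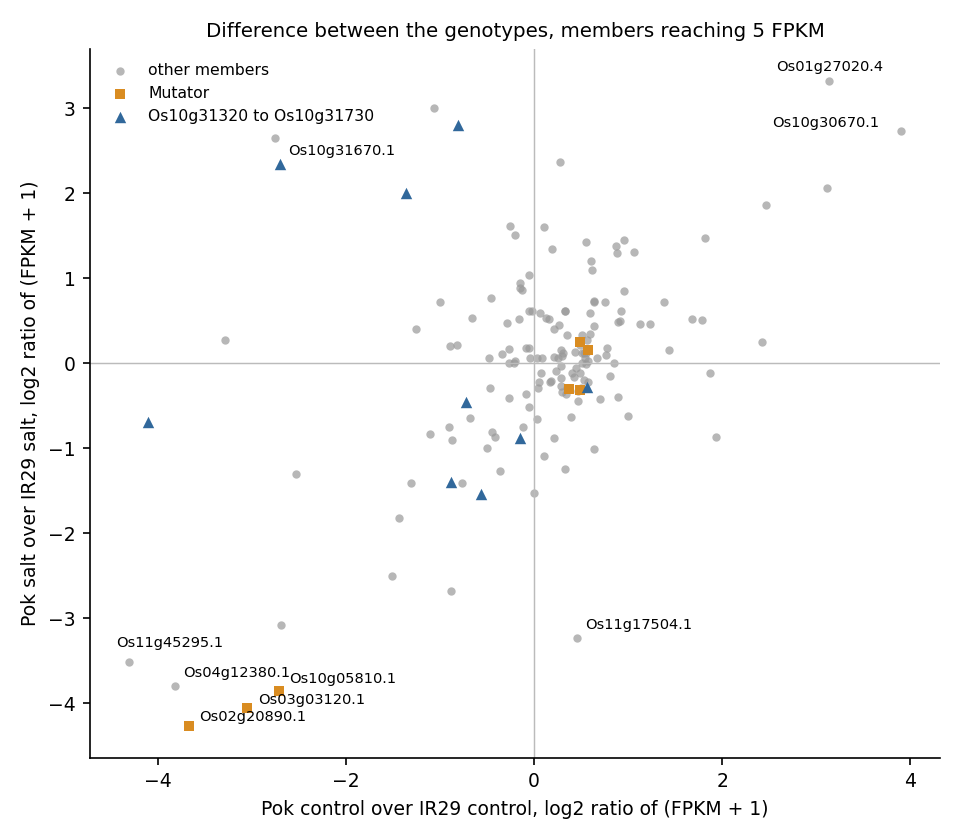
Pok over IR29 in control (x axis) against Pok over IR29 after salt (y axis), as log2 ratio of (FPKM + 1), for the 163 members that reached 5 FPKM in at least 1 library (points). Squares mark Mutator members and triangles those of the chromosome 10 stretch. The Mutator transcripts Os02g20890.1, Os03g03120.1 and Os10g05810.1 lie at the lower left with Os04g12380.1 and Os11g45295.1, and Os10g30670.1 and Os01g27020.4 at the upper right.

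With treatments as pairs, the same limma fit called 1 of the 121 members higher in Pok, Os02g43640.1, and 2 lower, Os04g12380.1 and Os02g20890.1, at a Benjamini-Hochberg adjusted p of 0.05, against 0.48% and 0.47% of all transcripts tested. At an unadjusted limma p of 0.05 the numbers were 18 (14.9%) and 14 (11.6%), against 13% and 4.22% of all transcripts tested. Centred or scaled to the upper quartile, the limma fit called none of the members, with smallest adjusted p of 0.0831 and 0.0989. At an unadjusted limma p of 0.05, 10 were then higher and 18 lower (centred), and 11 and 18 (upper quartile). Of all 10212 transcripts tested, 1319 and 1290 passed this unadjusted limit, both directions together. The number called at the adjusted limit over all transcripts tested went from 97 to 29 and 26.

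Of the Mutator members, 3 were high in IR29 and near 0 in Pok. Os02g20890.1 (chromosome 2, 12350040 to 12352794) had 14.3, 19.3, 0.201 and 0.057 FPKM. Os03g03120.1 (chromosome 3, 1310786 to 1314125) had 8.85, 16.4, 0.193 and 0.0435 FPKM, and Os10g05810.1 (chromosome 10, 2934933 to 2938780) had 6.64, 13.6, 0.165 and 0.0121 FPKM. These 3 of the 12 were thus between 6.64 and 19.3 FPKM on IR29 polysomes and close to 0 on Pok polysomes in both conditions, with 70.9-fold, 45.8-fold and 40.3-fold higher values in IR29 in control. Each was alone in its assembled locus. In the other Mutator members that were considered, Os12g12360.1, Os08g23700.1, Os01g55090.1 and Os01g64256.1, Pok was not lower in control: Os08g23700.1 had 3.83, 6.36, 5.26 and 4.95 FPKM, and Os01g55090.1 had 3.42, 5.80, 5.22 and 4.49 FPKM.

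Some retrotransposon transcripts showed the same restriction to IR29. Os04g12380.1, a Ty3-gypsy transcript (chromosome 4, 6825030 to 6826754), had 24.2, 12.8, 0.794 and 0 FPKM. Os11g45295.1, unclassified (chromosome 11, 26939160 to 26944282), had 20.4, 10.4, 0.0822 and 0 FPKM. Both were lower after salt than in control in IR29, by just under 2-fold. On the same chromosome the neighbours Os11g11320.1 (5.05, 1.46, 0.048 and 0 FPKM) and Os11g11330.1 (2.85, 1.45, 0.0326 and 0 FPKM) had this pattern at lower levels.

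In the other direction, the CACTA transcript Os10g30670.1 (chromosome 10, 15897444 to 15899283) had 0.0417, 0.134, 14.6 and 6.56 FPKM. Within Pok it was 2.22-fold lower after salt. Os02g43640.1, an unclassified retrotransposon, had 13.3, 12.6, 49.3 and 36.7 FPKM, 3.72-fold higher in Pok in control and 2.92-fold after salt, in an assembled locus with 6 annotated transcripts. Another retrotransposon, Os04g11524.1, had 0.933, 0.584, 9.69 and 4.75 FPKM, so that it too was near 1 FPKM or below in IR29 and lower after salt in Pok.

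Counted over all levels, 10 members had at least 1 FPKM in both IR29 libraries and under 0.1 FPKM in both Pok libraries (2.46%), against 1.12% of all annotated transcripts at 1 FPKM. The reverse held for 14 members (3.45%), against 1.22%. These limits were chosen after the values were seen. Each of these members entered the set through the libraries of 1 genotype alone, so the shares are a description. Among transcripts below 5 FPKM throughout, the shares were 2.88% of 243 members and 1.75% of 7982 others for IR29, and 4.94% and 1.82% for Pok. Of the 14 found on Pok polysomes, 6 were CACTA transcripts, among them Os01g66930.2 (0.0123, 0.0575, 4.07 and 3.40 FPKM), Os02g13770.1 (0, 0, 3.09 and 3.02 FPKM) and Os04g34560.1 (0.00476, 0.0199, 2.55 and 2.63 FPKM). The 10 for IR29 included 3 CACTA transcripts and the only Ac/Ds member, Os08g23200.1, with 1.35, 2.81, 0.049 and 0.00674 FPKM. Both genotypes were mapped to 1 reference genome, so that an element that is absent, that differs in sequence or that is not expressed in a genotype would in each case be near 0, and these cannot be told apart from the values of most such members. For 3 of the 24, Os01g27020.2, Os01g27020.4 and Os05g04630.4, other transcripts of the same gene were found in the genotype listed at 0.

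At some loci the listed transcript forms differed between the genotypes more than the total did, although forms listed at 0 may be failed estimates. Os01g27020, an unclassified transposon locus on chromosome 1 (15058396 to 15066528), had 3 member transcripts. Os01g27020.3 was higher in IR29, with 17.2, 25.3, 6.36 and 8.94 FPKM. Os01g27020.2 (0, 0, 7.63 and 3.18 FPKM) and Os01g27020.4 (0, 0, 7.76 and 8.96 FPKM) had values in Pok alone. Their sums were 17.2, 25.3, 21.7 and 21.1 FPKM, so that the gene as a whole differed little between the genotypes.

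The SINE locus Os05g04630 (chromosome 5, within 2165020 to 2198015) held 6 of the 10 SINE members, and they split too. The most abundant form, Os05g04630.1, was stable as given above. Os05g04630.5 (6.49, 16.3, 3.75 and 24.0 FPKM) and Os05g04630.2 (3.35, 14.4, 1.46 and 16.8 FPKM) were higher after salt in both genotypes. Os05g04630.3 (2.51, 17.1, 12.4 and 8.92 FPKM) was higher after salt in IR29 alone, and Os05g04630.4 (5.43, 7.42, 0 and 0 FPKM) had values in IR29 alone. Summed over the 6 forms, the locus had 48.6, 95.7, 54.6 and 88.1 FPKM, higher after salt in both genotypes and within a narrow range between them. At Os10g31320 the second form, Os10g31320.2, had 16.1, 0.611, 0 and 0 FPKM against the increase of Os10g31320.1, and the sum still was 56.0, 239, 59.3 and 197 FPKM.

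Genes of families that take part in keeping transposons silent were read from a list of annotation words. The words do not show which of these genes act on transposons. Of 27 such transcripts at 1 FPKM or more, 8 were Argonautes, which carry small RNAs, 3 Dicer enzymes, which cut them, 1 an RNA-dependent RNA polymerase, 4 histone H3 lysine-9 methyltransferases and 11 SNF2-family proteins, a family that includes chromatin remodellers. The list's words for DNA methyltransferases and demethylases matched no transcript at this level, and Os05g04330.2, annotated as a DNA methyltransferase protein and found afterwards, was at 2.42, 3.58, 3.91 and 3.03 FPKM. After salt, 3 of the 11 considered in IR29 were higher and none lower, and in Pok 1 was higher and 3 lower of 14. Over all annotated transcripts the shares were, as above, 19.1% and 5.96% in IR29 and 15.7% and 5.61% in Pok. The 3 in IR29 were SNF2 proteins, as Os03g22900.1 with 5.75, 11.7, 8.46 and 10.0 FPKM. The lower ones in Pok included both transcripts of the SUVH1-annotated methyltransferase Os05g41172, of which Os05g41172.1 had 14.1, 17.3, 5.31 and 0 FPKM and Os05g41172.2 had 1.31, 2.98, 13.3 and 0 FPKM, where the listed zeros may again be failed estimates. Median log2 ratios over the 27 were 0.48 in IR29 and -0.03 in Pok, beside 0.20 and 0.08 over all annotated transcripts at 1 FPKM.

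Between the genotypes, 3 of the 11 list transcripts considered in control were higher in Pok and 1 lower, and after salt 2 of 14 were higher and 1 lower, beside 11.0% and 6.62% of all annotated transcripts in control and 9.87% and 6.76% after salt. The RNA-dependent RNA polymerase Os01g34350.1 was higher in Pok in both conditions, with 2.53, 3.0, 6.76 and 7.62 FPKM. The Argonaute Os01g16870.1 varied less, with 13.7, 24.5, 23.1 and 22.6 FPKM. FAR1-family proteins, transcription factors derived from a Mutator-like transposase, gave 2 transcripts of 1 gene, and Os03g15040.1 had 4.21, 5.71, 3.78 and 4.52 FPKM, within 2-fold in all libraries. The other, Os03g15040.2, was lower and varied more, with 0.756, 2.19, 2.96 and 1.45 FPKM.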

How the data were processed

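Polysomal RNA of 4 libraries was sequenced as single-end reads after poly(A) selection. According to the methods, the authors filtered the reads, aligned them with TopHat to the MSU rice genome (annotation version 6.1), assembled transcripts with Cufflinks, Cuffmerge and Cuffcompare and estimated levels with Cuffdiff. Tool versions are not given in the sources used here. The authors deposited 1 table of FPKM values per assembled transcript, with no counts, so depth cannot be read from it, and the read numbers the study lists are not used here. How reads that fit several near-identical copies were divided, and whether strand was used, is not stated, so levels of near-identical or overlapping elements cannot be told apart. The positions given are those of the assembled locus, counted from 1.

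From this table, rows matching an annotated transcript in full were kept, the members were taken by their text and level, and classes were read from the text. Ratios are of FPKM, with a minimum of 5 FPKM in 1 library of the pair and a 2-fold limit, and log2 ratios are of (FPKM + 1). There is 1 library per group, so single comparisons have no test. A limma fit on log2 (FPKM + 1), with genotype and treatment as terms over the 4 libraries and transcripts of a mean of 5 FPKM or more, with a trend in eBayes and Benjamini-Hochberg adjustment over these transcripts, was added after the values were seen. Named transcripts were drawn from the 10 highest, the 3 highest of each class, the 6 largest increases and decreases in each of the 4 comparisons, the 3 highest listed at 0 in the other library, and the 5 with the largest changes in both genotypes. Others were named after their values were seen. Members and lists were chosen with earlier results of these data known. Alternatives were other minimums, a 4-fold limit, other pseudocounts, 2 other scalings, sums per locus and leaving out zeros. The computations used R 4.3.3, limma 3.58.1, Python 3.11.15, numpy 2.4.6, pandas 2.3.3 and matplotlib 3.10.9.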

Additional observations from a re-analysis of the deposited data

Results flagged for a closer look

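The members Os10g31500.1, Os10g31670.1 and Os06g49090.1 moved in opposite directions after salt in the 2 genotypes, which is why they are listed here. The difference was not tested here, since each group had 1 library. The study lists Os10g31670.1 among its oppositely regulated genes. Os10g31500.1 went from 7.88 to 1.52 FPKM in IR29 and from 2.46 to 9.10 FPKM in Pok. Os10g31670.1 went from 6.48 to 0.273 FPKM in IR29 and from 0.149 to 5.50 FPKM in Pok. Os06g49090.1 was listed at 5.72 and 0 FPKM in IR29 and at 0 and 5.28 FPKM in Pok. With upper-quartile scaling only Os10g31500.1 stayed past the size limits in both genotypes.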

How the results depend on the processing

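With 1 library per group no replicate could be left out, and the table gives no depth. No paired analysis was possible because each group has a single replicate number, and genotypes or treatments served as pairs only in the limma fit. Of 72 counts recomputed under an alternative, 35 stayed within 1.5 times the value given, and of 24 medians 14 stayed within 0.1 on the log2 scale. Signs near 0 depended on the scaling: the median of 0.06 for Pok salt over control was -0.01 with upper quartiles, and that of 0.01 for Pok over IR29 after salt was -0.06 when centred and -0.08 with upper quartiles. The cause of the changes was not tested, beyond what each setting does to the number of members considered.

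For IR29 salt over control (34 higher, 11 lower), a minimum of 1 FPKM gave 104 higher and 24 lower, no minimum 123 and 32, a 4-fold limit 17 and 5, upper-quartile scaling 21 higher, and a minimum of 10 FPKM 3 lower. The median of 0.25 became 0.117 with a pseudocount of 5, 0 over all transposon-annotated transcripts, 0.385 over members with a mean of 5 FPKM, 0.082 when centred and 0.0498 with upper quartiles. For Pok salt over control (29 and 8), the minimum of 1 FPKM gave 86 and 33, no minimum 97 and 44, 10 FPKM 18 and 4, and the 4-fold limit 18 and 1. The number lower was 5 with the limit set on FPKM + 1 and 14 with upper quartiles, and the median was 0.196 over members with a mean of 5 FPKM. For Pok over IR29 in control (22 and 18), the counts were 78 and 53, 99 and 67, 11 and 8, and 8 and 11 under the same 4 settings. The number higher was 13 when centred, with upper quartiles or with FPKM summed per locus. The median of 0.18 became 0.0595 with a pseudocount of 5, 0 over all transposon-annotated transcripts, 0 when centred and 0.022 with upper quartiles. For Pok over IR29 after salt (22 and 19), the same 4 settings gave 77 and 69, 87 and 73, 10 and 11, and 9 and 11. In the limma fit (13 members higher after salt, 1 higher and 2 lower in Pok), centring and upper-quartile scaling gave 0 for each, and the prior degrees of freedom went from 5.57 to 3.15 and 3.09. Without pairs the numbers were 3, 0 and 0. In Pok, a pseudocount of 0.5 gave 0 higher and 1 lower, and a pseudocount of 5 and a mean of 1 FPKM each gave 4 lower. The limma fit and its settings were chosen after seeing the data.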
